A study of Equus caballus with 17 samples.

Results

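miR-191a (eca-miR-191a) is 1 of 274 annotated mature miRNAs in a small RNA table of horse (Equus caballus) testis and sperm. It was chosen by its read counts in the sperm libraries, where it led, and it has 1 entry in the table. Because that level chose it, the Sperm values of miR-191a are given as a description with no test, and its tests are restricted to the testis stages. By its counts summed over all 17 libraries, 3315144, it ranked 10 among the annotated miRNAs.

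Testis was sampled at the stages labelled Infant (n = 3), Pre-puber (n = 3), Puber (n = 3) and Adult (n = 4), and sperm formed a group of their own, Sperm (n = 4). The labels give no age, breed, treatment or genotype. Infant 31a and 31b share a title number, as do Pre-puber 3a and 3b, and nothing says that the libraries of a group came from separate animals, so the p-values cover library-to-library spread that may be technical. Counts of annotated miRNAs per library ran from 1481718 in Sperm 3 to 13117711 in Pre-puber 3a. Sperm 2, 3 and 4 were smaller than every testis library, and Sperm 1 than every one except Adult 20.

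A miRNA is a short RNA that guides an Argonaute protein to messenger RNAs that pair with it, mostly through the seed near its 5′ end, and lowers their translation and stability. In mammals miR-191 is cut from the same host transcript as miR-425 and is found in many tissues and in blood cells, so that it has often been used as a reference miRNA in PCR. Mature sperm make little or no new RNA, and their small RNAs come from the developing germ cell and from vesicles taken up in the epididymis. In the RefSeq gene table of horse assembly TB-T2T, the MIR191A gene lies inside the interval of MIR191B, and MIR425 is the next of the 3 in order. miR-425 was not analysed here.

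Levels below are the percent of annotated miRNA counts that miR-191a took in a library. In Sperm 1, 2, 3 and 4 it took 37.8%, 15.6%, 48.6% and 51.7%. In Adult 13, 20, 33 and 4 it took 1.52%, 0.715%, 1.58% and 1.24%. Each Sperm library stood above each Adult library, and Sperm 2 was the low one of its group, as Adult 20 was of its own. The 95% Wilson interval of each library's share reached at most 0.0805 percentage points to either side, which covers counting error only. Per the protocols, sperm RNA was treated with DNase for a shorter time and purified by another step than testis RNA, so cell source and RNA preparation cannot be told apart in any contrast of Sperm with testis.

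The share was also low in the younger testes. It was 0.468%, 0.611% and 1.05% in Puber 10, 11 and 19. It was 0.734%, 0.529% and 0.849% in Pre-puber 3a, 3b and 14, and 0.364%, 0.359% and 0.588% in Infant 31a, 31b and 30. Puber 19 and Pre-puber 14 were the high libraries of their stages, and Infant 30 of the youngest stage.

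**Figure D1:**
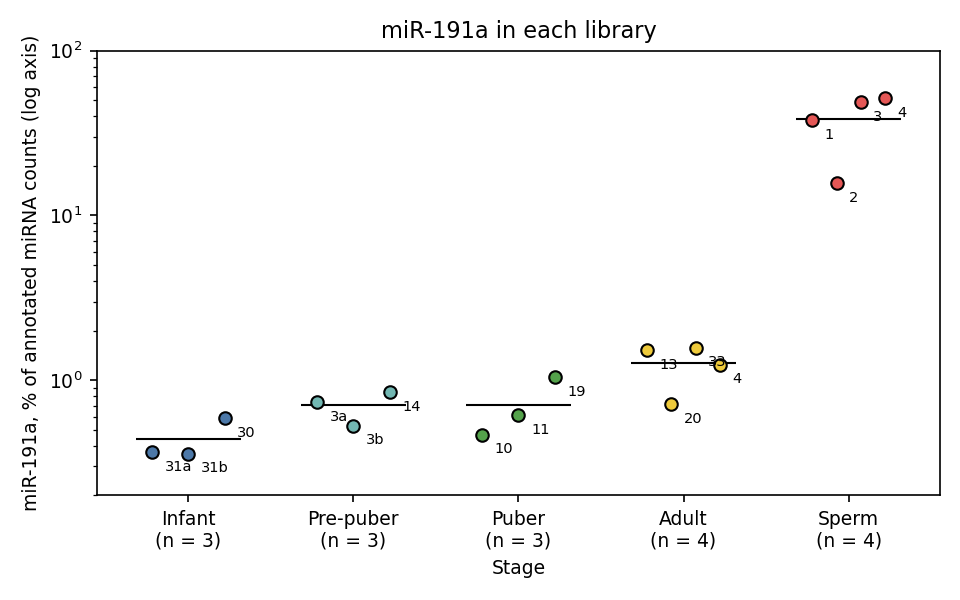
Percent of annotated miRNA counts taken by miR-191a (log axis) in each of 17 libraries, by stage; points are libraries, labelled with their title number, and lines are group means. The 4 Sperm libraries lie between 15.6% and 51.7%, above all 13 testis libraries, which lie between 0.359% and 1.58%.

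Means and SDs over the libraries gave, from the youngest stage on, 0.437 ± 0.131% for Infant, 0.704 ± 0.162% for Pre-puber, 0.709 ± 0.302% for Puber, 1.26 ± 0.394% for Adult and 38.4 ± 16.3% for Sperm (n = 3, 3, 3, 4 and 4). Neighbouring testis stages overlapped in miR-191a, and Pre-puber and Puber had nearly the same mean. The share of the 184 tested miRNAs whose libraries did not overlap, with the later stage higher, was 29.9% for Pre-puber against Infant, 16.8% for Puber against Pre-puber and 11.4% for Adult against Puber. It was 42.4% for Puber against Infant and 25.5% for Adult against Pre-puber, which also overlapped in miR-191a. The libraries of Adult lay above those of Infant without overlap, as was so for 41.8% of the 184 tested miRNAs. The mean of Sperm was 30.4 times that of Adult, a ratio that depends on the denominator: it was 12.9 without the 10 most abundant other miRNAs of either group and 101.5 in TMM-scaled CPM. In shares the lowest Sperm library was at 9.92 times the highest testis library. Of the 162 miRNAs tested in Sperm and Adult, 19.8% had libraries that did not overlap with Sperm the higher, a contrast from which nothing is read for miR-191a. The 4 Sperm libraries held 7.43% of all annotated counts of the series and 80.9% of the counts of miR-191a.

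The position of miR-191a in the order of miRNAs needs no scaling. It was in position 1 in Sperm 1, 3 and 4 and in position 2 in Sperm 2, behind miR-34c. In the Adult libraries it lay between positions 14 and 18, in Puber between 19 and 23, in Pre-puber between 17 and 22 and in Infant between 22 and 24. Over all entries, predicted hairpins included, the deposited values averaged 285100 ± 120000 RPM in Sperm and 9148 ± 2619 RPM in Adult (SD, n = 4 each).

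The 5 miRNAs next in abundance in Sperm give the surroundings of this level. They were miR-30d, which is widely expressed, miR-34c, known from germ cells in and after meiosis, miR-21 and miR-26a, which are widely expressed, and miR-99a, which led most of the libraries of young testis. Their mean shares in Sperm were 10.1 ± 2.77%, 7.71 ± 5.94%, 6.05 ± 3.73%, 4.00 ± 1.55% and 3.21 ± 1.32% (SD, n = 4). In Adult the same 5 had 2.46 ± 0.235%, 4.89 ± 0.891%, 13.2 ± 2.12%, 6.34 ± 0.55% and 7.03 ± 1.28% (n = 4). A share depends on what else is in the library, so the counts were also taken without miR-191a. miR-21 then had 9.26 ± 2.98% in Sperm and 13.4 ± 2.15% in Adult, and miR-26a had 6.46 ± 1.55% in Sperm and 6.43 ± 0.568% in Adult, so the means of miR-26a then lay within each other's SD. miR-30d had 17.6 ± 6.88% in Sperm and 2.49 ± 0.241% in Adult on this basis. miR-34c had 11.5 ± 5.43% in Sperm and 4.96 ± 0.920% in Adult, and miR-99a had 5.65 ± 3.05% in Sperm and 7.12 ± 1.30% in Adult.

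**Figure D2:**
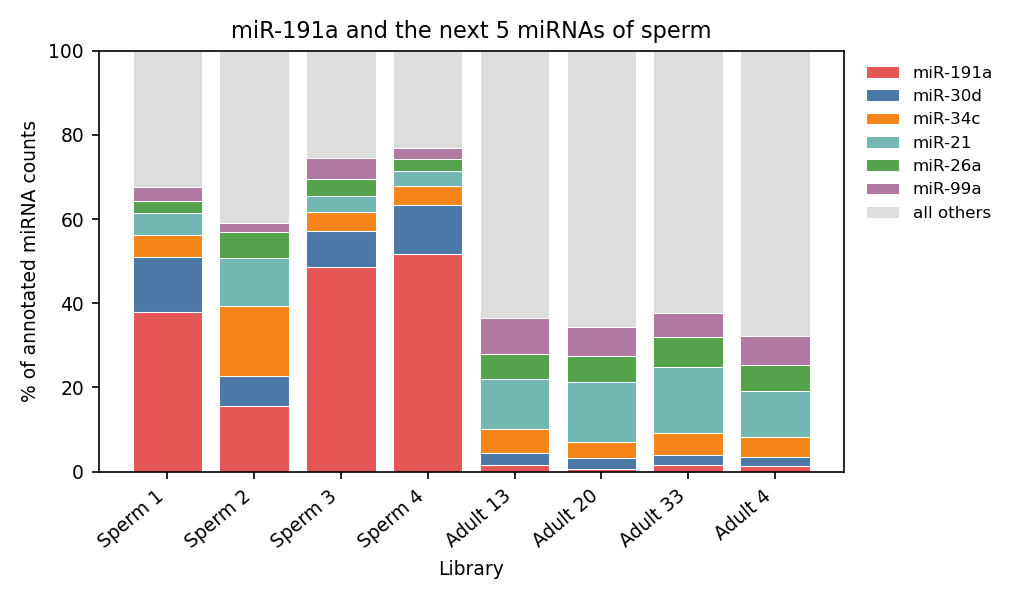
Percent of annotated miRNA counts taken by miR-191a, by the next 5 miRNAs of sperm and by all others, in each Sperm and Adult library; each bar is 1 library and sums to the whole of its annotated counts. miR-191a fills 15.6% to 51.7% of the Sperm bars and 0.715% to 1.58% of the Adult bars.

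Ratios between 2 miRNAs within a library need no scaling. miR-191a and the next 5 were chosen by their order in Sperm, so ratios over 1 in Sperm follow largely from that choice. The ratios are given as a description. miR-191a over miR-30d was 2.89, 2.21, 5.65 and 4.41 in Sperm 1, 2, 3 and 4, against 0.543, 0.295, 0.695 and 0.529 in Adult 13, 20, 33 and 4. In the other testis stages it ran from 0.319 in Infant 31b to 0.808 in Pre-puber 14, so miR-30d outnumbered miR-191a in all 13 testis libraries and in none of the Sperm libraries. miR-191a over miR-21 was 1.35 to 14.0 in Sperm and 0.0503 to 0.128 in Adult. miR-191a over miR-99a was 7.61 to 20.9 in Sperm and 0.101 to 0.284 in Adult. miR-191a over miR-26a was 2.55 to 17.7 in Sperm and 0.116 to 0.257 in Adult. For all 3, the lowest Sperm library was over the highest Adult library, which also follows largely from choosing miR-191a by its Sperm level. The ratio to miR-99a was lowest in Infant, at 0.0147, 0.0117 and 0.0269 in Infant 31a, 31b and 30.

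The ratio of miR-191a to miR-34c took another course over the testis stages than the other 4. It was 7.03, 0.942, 10.95 and 11.7 in Sperm 1, 2, 3 and 4, and 0.261, 0.187, 0.293 and 0.275 in Adult 13, 20, 33 and 4. It was 0.522, 0.294 and 0.466 in Puber 10, 11 and 19. In the youngest testes it was high, at 172, 84.5 and 3.69 in Pre-puber 3a, 3b and 14 and at 137, 221 and 488 in Infant 31a, 31b and 30, where miR-34c held at most 0.00266% of counts. Adult and Puber were thus the stages in which miR-34c outnumbered miR-191a in every library, and Sperm 2 was the only Sperm library in which it did.

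**Figure D3:**
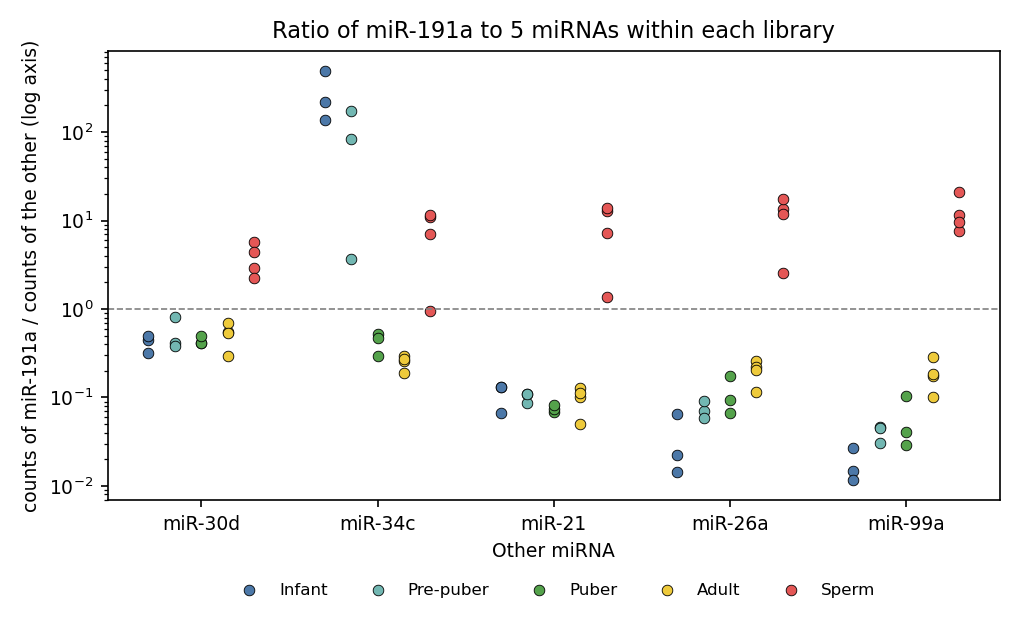
Counts of miR-191a divided by the counts of miR-30d, miR-34c, miR-21, miR-26a or miR-99a in the same library (log axis); each point is 1 library, coloured by stage, and the dashed line marks equal counts. Sperm points lie over the line except Sperm 2 for miR-34c at 0.942, and testis points lie under it except those of Infant and Pre-puber for miR-34c.

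The 4 Sperm libraries differed 3.30-fold in their share of miR-191a, between 15.6% in Sperm 2 and 51.7% in Sperm 4. Of the 19 miRNAs with a mean share of at least 1% in Sperm, 9 were highest in Sperm 2 and 6 lowest there, miR-191a among the lowest. With miR-191a taken out of the total, 5 of the other 18 were highest in Sperm 2, close to an even split over the 4 libraries. Among these, miR-34c then had 19.7% in Sperm 2 and 8.63% to 9.15% in Sperm 1, 3 and 4, and miR-21 had 13.7% in Sperm 2 and 7.37% to 8.35% in Sperm 1, 3 and 4. The low share of miR-191a in Sperm 2 therefore went with high shares of miR-34c and miR-21. The 4 germ cell markers in the table of 6 listed, the miR-34 and miR-449 families, summed to 23.0% of annotated counts in Sperm 2 and to 5.77% to 7.91% in the other Sperm libraries. They summed to 4.37% to 7.18% in Adult and to 0.00146% to 0.00309% in Infant. Sperm 2 had 1914921 annotated counts, within the range of the others, 1481718 to 2261418.

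Markers of other cells were summed for the same libraries. The 5 blood cell markers in the table, of 8 listed, took 0.481% to 0.506% in Sperm and 0.187% to 0.869% in Adult. The groups thus overlapped, while miR-191a is itself known from blood cells. With miR-191a taken out of the total, these markers took 0.773%, 0.600% and 0.945% in Sperm 1, 2 and 3, and more in Sperm 4. On that basis they took 0.288%, 0.189% and 0.303% in Adult 13, 20 and 4. Adult 33 had 0.883%, above Sperm 1 and 2, so the groups overlapped through that library only. The 3 stromal markers, of 7 listed, took 0.00327% to 0.00971% in Sperm and 1.43% to 2.94% in Adult. The endothelial miR-126-5p, 1 of 2 listed, took 0.00209% to 0.00256% in Sperm and 0.0307% to 0.0868% in Adult. Stromal and endothelial markers were thus lower in each Sperm library than in each Adult library. The share of all miRNAs without overlap in that direction was not computed. A lower share in Sperm was common, since 147 of the 274 annotated miRNAs had a lower mean share in Sperm than in Adult. The 1 epithelial marker in the table of 7 listed, miR-205, took 0.0163% to 0.0653% in Sperm and 0.000184% to 0.000368% in Adult, and the liver miR-122 took 0.992% to 1.38% in Sperm and 0.00298% to 0.00752% in Adult. No marker in the table stood at 0 in a Sperm library, and the gonadal miR-202 and the 5 striated muscle markers were not analysed here. The stromal, endothelial, epithelial and liver markers moved with the comparison of Sperm and Adult, and the part of any marker in the level of miR-191a was not tested. In these bulk libraries, fewer cells of a type and less RNA per cell cannot be told apart.

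The testis stages were compared by edgeR's quasi-likelihood test on TMM-scaled counts of the 13 testis libraries, adjusted by the Benjamini-Hochberg method over 184 miRNAs, and a miRNA with an adjusted p under 0.05 is said to be called. TMM scales libraries so that most miRNAs keep their level. Scaled levels of miR-191a had means and SDs over libraries of 6214 ± 894 CPM for Infant, 7372 ± 2001 CPM for Pre-puber, 6445 ± 1316 CPM for Puber and 9289 ± 1413 CPM for Adult (n = 3, 3, 3 and 4). On this scale the means differed less than the shares did. miR-191a was not called over the 4 stages (edgeR adjusted p = 0.188), where 47.8% of the tested miRNAs were.

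Adult against Infant came nearest to a call for miR-191a. The scaled levels were 10680, 7473, 10080 and 8923 CPM in Adult 13, 20, 33 and 4, against 6258, 5299 and 7084 CPM in Infant 31a, 31b and 30, without overlap. The log2 fold change was 0.58 ± 0.26 (SE, n = 4 and 3), with an edgeR adjusted p = 0.0777, in a comparison where 51.6% of miRNAs were called (26.1% higher and 25.5% lower) and the median log2 fold change of all tested was -0.14. The split of all calls moved with the scaling, at 48 higher and 47 lower with TMM, 84 and 21 without scaling, 40 and 65 by upper quartiles and 52 and 35 with RLE factors. The call of miR-191a turned with it too. It was made with RLE factors (log2 fold change 0.77, edgeR adjusted p = 0.0312), by DESeq2 (0.77, adjusted p = 0.0225) and without scaling beyond the total (1.53, edgeR adjusted p = 0.00386, at a median of 0.82 for all tested). It was also made without Puber 11 (0.88, edgeR adjusted p = 0.0275). With predicted hairpins in the same fit the sign turned (-1.22, edgeR adjusted p = 0.00668), at a median of 5.64 for all entries.

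The other pairs of stages gave smaller or less certain differences. Adult against Puber had a log2 fold change of 0.53 ± 0.26 (SE, edgeR adjusted p = 0.30), and Adult against Pre-puber 0.33 ± 0.26 (adjusted p = 0.338). Pre-puber against Infant had 0.25 ± 0.27 (adjusted p = 0.55), Puber against Infant 0.05 ± 0.27 (adjusted p = 0.913) and Puber against Pre-puber -0.19 ± 0.27 (adjusted p = 0.77). None was called for miR-191a, while the share of all miRNAs called was 0% for Adult against Puber (0 of 184, with 34 at an unadjusted p under 0.05 and 10 calls by DESeq2), 27.7% for Adult against Pre-puber (12.5% higher and 15.2% lower), 23.9% for Pre-puber against Infant (15.8% higher and 8.15% lower), 36.4% for Puber against Infant (21.2% higher and 15.2% lower) and 1.09% for Puber against Pre-puber. The split of the calls moved with the scaling here too. Adult against Pre-puber had 23 higher and 28 lower calls with TMM, and 33 higher and 14 lower without scaling. Pre-puber against Infant had 29 higher and 15 lower with TMM, and 36 higher and 5 lower without scaling. Puber against Infant had 39 higher and 28 lower with TMM, and 56 higher and 11 lower without scaling. With hairpins in the fit, Puber against Pre-puber was called (log2 fold change -2.05, edgeR adjusted p = 0.00644), and the signs of Adult against Pre-puber (-1.84) and Puber against Infant (-1.44) turned.

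**Figure D4:**
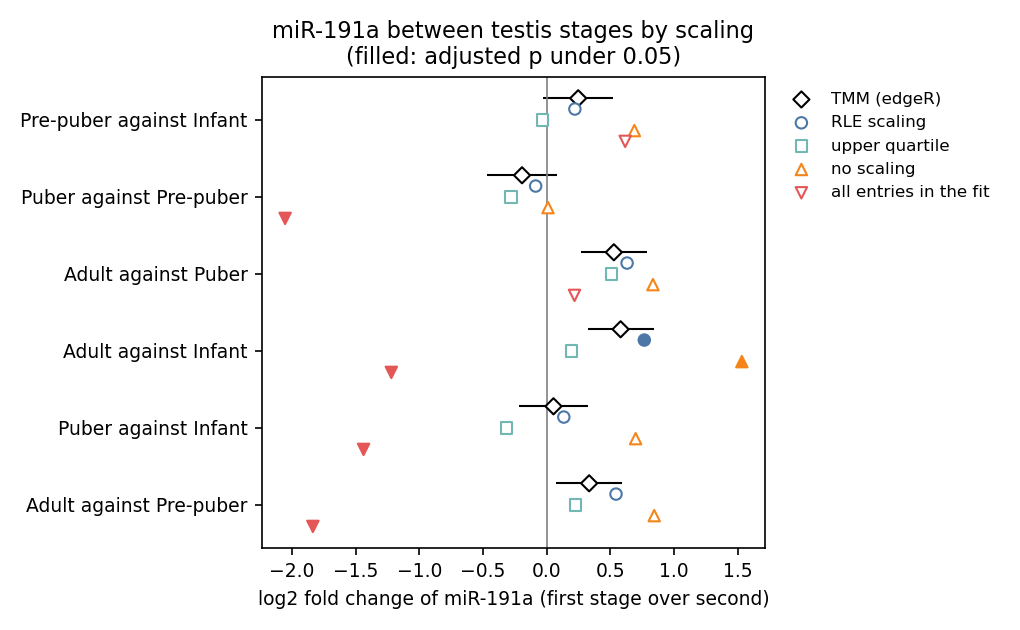
log2 fold change of miR-191a between testis stages (first named over second) under 5 ways of scaling the counts; bars are standard errors of the TMM fit and filled symbols have an adjusted p under 0.05. With TMM no pair passes and Adult against Infant stands at 0.58, while without scaling it stands at 1.53 and with all entries in the fit at -1.22.

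miRNAs proposed as stable references in tissue panels were set beside miR-191a, since it belongs to that list. Of 8 others listed, 5 were in the table, and 3 of them changed over the 4 testis stages by edgeR (background 47.8%). The 3 were miR-93, miR-106a and miR-17, which belong to 1 seed family and of which miR-106a and miR-17 had nearly the same counts, so those 2 are not separate evidence. In Adult against Infant these 3 rose, with log2 fold changes of 2.35, 3.49 and 3.58 (edgeR adjusted p = 0.000147, 0.000409 and 0.000329), and did so under each scaling tried on annotated miRNAs. Of all tested miRNAs, 26.1% rose in this pair with TMM. miR-16, of a family known to restrain the cell cycle, had 0.59 (adjusted p = 0.182) and miR-423-5p had -0.02 (adjusted p = 0.958). Without scaling both were called higher too (1.63, edgeR adjusted p = 0.00852, for miR-16 and 0.85, adjusted p = 0.023, for miR-423-5p), at a median of 0.82 for all tested. The median of the 5 was 2.35, against -0.14 for all tested, and miR-191a stood at 0.58. Of the same 5, 3 rose in Puber against Infant, where 21.2% of all tested miRNAs rose, and 3 in Pre-puber against Infant, where 15.8% did (1 with those 2 stages fitted alone). In Adult against Pre-puber 1 rose, where 12.5% of all did. None of the 5 was called higher in that pair with libraries of 1 title number summed, or without Pre-puber 3a or 3b or Adult 13, 20 or 4, and 4 were without Pre-puber 14. In Puber against Pre-puber and in Adult against Puber 0 of the 5 were called, against 1.09% and 0% of all.

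In Sperm against Adult, fitted in its own 8 libraries, 3 of the 5 rose by edgeR (miR-16, miR-93 and miR-423-5p, log2 fold changes 4.08, 3.45 and 2.63) and 2 were not called, where 81.5% of 162 miRNAs were called (42% higher and 39.5% lower). Scaling moves this contrast: the median of all tested was 0.06 with TMM (68 higher and 64 lower calls) and -1.61 without scaling (36 and 86). Without scaling miR-16 and miR-93 were still called higher (2.41 and 1.85), miR-423-5p stood at 0.99 (adjusted p = 0.057), and miR-106a and miR-17 were called lower. In shares, miR-16 took 1.72 ± 0.817% in Sperm and 0.324 ± 0.165% in Adult, and miR-93 took 0.993 ± 0.567% in Sperm and 0.275 ± 0.0338% in Adult (SD, n = 4 each).

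Other miRNAs often reported from mammalian sperm were listed in the same way, and 16 of 23 were in the table. In Sperm against Adult 11 of the 16 were called by edgeR, 9 higher and 2 lower, against 81.5% of all miRNAs. Without scaling the split was 5 higher and 7 lower, and the median of the list was -0.36 in place of 1.29. miR-30d rose under each scaling (log2 fold change 2.04 to 3.68), as did miR-340-5p (2.17 to 3.72), miR-449a (1.59 to 3.21), miR-10a (1.5 to 3.02) and miR-186 (1.66 to 3.34). The other 4 called higher with TMM, miR-34c, miR-34b-5p, miR-151-5p and miR-26a, were not called without scaling. let-7c and miR-100 fell under each (-4.46 to -2.86 and -6.32 to -4.69): let-7c took 0.262 ± 0.017% in Sperm and 5.75 ± 1.04% in Adult, and miR-100 took 0.0892 ± 0.0312% in Sperm and 7.12 ± 0.274% in Adult. Over the 4 testis stages 6 of the 16 were called (background 47.8%). In the separate contrast of Adult against Infant 4 were called higher and 4 lower, where 26.1% and 25.5% of all tested miRNAs were.

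The miRNAs most like miR-191a in profile depended on whether Sperm was included. Likeness was the root mean square difference of log2 (CPM + 1) over libraries, each profile centred on its own mean, among 183 others, and smaller is closer. Over the 13 testis libraries the closest were miR-30c (0.26), miR-660 (0.267), miR-15b (0.297), miR-345-5p (0.304) and miR-148b-5p (0.32), at a median of 0.813 for all 183. miR-30c was also close in level, with means of 0.365%, 0.656%, 0.643% and 0.826% in Infant, Pre-puber, Puber and Adult.

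Since miR-191a was chosen by its level in Sperm, the Sperm values of these 5 are set beside it as a description only. The mean share of the 5 in Sperm over that in Adult was 1.52 for miR-30c, 0.0399 for miR-660, 2.14 for miR-15b, 0.187 for miR-345-5p and 2.03 for miR-148b-5p, against 30.4 for miR-191a. Of 184 miRNAs, only 4 had a larger ratio than miR-191a, so nearly any miRNA would lie below it. miR-660 took 0.00196 ± 0.0015% in Sperm and 0.0492 ± 0.0146% in Adult (SD, n = 4 each), and it fell by edgeR (log2 fold change -3.08, adjusted p = 2.28e-06) and under each other scaling (-4.64 to -3.36).

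Over all 17 libraries the closest 5 were miR-124 (0.558), miR-212 (0.903), miR-499-5p (0.952), miR-146b-5p (1.16) and miR-216b (1.18), at a median of 3.11. The SD of log2 (CPM + 1) of miR-191a was 2.54 over the 17 libraries and 0.714 over the 13 of testis. The Sperm values that chose miR-191a thus weigh most here, so these 5 are given as a description only. miR-499-5p, cut from an intron of a muscle myosin gene, took 0.37 ± 0.169% in Sperm and 0.0198 ± 0.00606% in Adult. miR-146b-5p, known from inflammation, took 1.25 ± 0.389% in Sperm and 0.198 ± 0.0766% in Adult. The other 3 were scarce: miR-124, a neural miRNA, had 312 counts over the 4 Sperm libraries, 19 over the 4 Adult libraries, 14 in Pre-puber and 0 in Puber and Infant, and miR-212 had 848 over Sperm and 64 over Adult. With a pseudocount of 10 in place of 1, only miR-499-5p and miR-146b-5p remained among the 5, and over the testis libraries 3 of 5 remained.

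miR-191b, the annotated neighbour whose interval holds MIR191A, was barely counted. It had 6, 3, 11 and 9 counts in Sperm 1, 2, 3 and 4, and 1 count in all 13 testis libraries, in Puber 19. Set against miR-191a, this was 29 of 2680453 in Sperm and 1 of 634691 in testis. Scaled to CPM of miR-191a counts, these were 10.8 in Sperm (exact 95% Poisson interval 7.25 to 15.5) and 1.58 in testis (0.0399 to 8.78). The intervals cover counting error only. They overlapped, which is not a test of the difference between Sperm and testis, and that difference was not tested. A count of 0 in a library allows up to 3 counts, or 0.229 to 1.38 CPM of annotated counts in the 12 testis libraries without a count. Since the genes overlap, reads of miR-191b and miR-191a may not be fully separable, and the counts of miR-191b are given as uncertain.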

How the data were processed

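Small RNA was sequenced in 17 horse libraries, 13 of testis and 4 of sperm. Per the labels, RNA was extracted with TRIzol, and the DNase step and purification differed between sperm and testis, so tissue and RNA preparation cannot be told apart. The submitters' processing notes name Trimmomatic and EquCab3.0. How reads were aligned and counted, and against which miRNA release, is not given in the sources used here. Across 1763 entries, the deposited table holds whole read counts per library, and deposited RPM values, which equal the count over the column total within 0.005 RPM. The number in a column's name was matched with that in the sample title. As 4 occurs in both Adult and Sperm, the prefix se was read as sperm, which the labels do not spell out. Of the entries, 302 name an annotated miRNA (274 mature miRNAs; the entry with the highest total was kept) and 1461 are predicted hairpins. Of the names, 54 end in -5p and 2 in -3p, so shares are of these 274 only. Annotated counts per library ran from 1481718 to 13117711.

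Computed here were shares, ranks and ratios of counts, and edgeR 4.0.16 quasi-likelihood fits (R 4.3.3; filterByExpr by group, TMM, adjusted p under 0.05), with the 13 testis libraries in 1 fit and the 8 Sperm and Adult libraries in another. Standard errors were derived from the F statistic. The fit was also run on simulated counts with as many miRNAs raised as lowered, which does not test the choice of scaling. Alternatives were other scalings (none, upper quartile, RLE), DESeq2 1.42.0, limma-voom (limma 3.58.1), no filter, all entries, every annotated entry, summed libraries, the 2 stages alone, and leaving out each library. Named miRNAs were miR-191a, annotated members of its cluster, the 5 next in abundance in Sperm, the 5 closest profiles over 17 and over 13 libraries, and the leading members of each list. The planned ratio to miR-425 was not computed. miR-191a and the lists were chosen with earlier results of these data known.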

Additional observations from a re-analysis of the deposited data

Results flagged for a closer look

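Of 42 groups of 4 libraries examined (21 named miRNAs in Sperm and in Adult), 2 held a library far from the other 3. Chance flags about 1 in 20 groups, so this is about as many as chance gives. miR-34c took 16.6% of annotated counts in Sperm 2, against 4.42% to 5.38% in the other Sperm libraries, and this is the library in which miR-191a was lowest. miR-212 took 0.000714% in Adult 33, the highest of the 4 Adult libraries. For miR-191a itself neither group held such a library.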

How the results depend on the processing

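No paired analysis was possible because no 2 groups share more than 1 title number (Adult and Sperm share 4, Pre-puber and Sperm share 3). Over the 4 stages miR-191a had an adjusted p of 0.0925 to 0.40 with 1 library left out. It was called without scaling (0.0185) and with all entries in the fit (0.000412). For Adult against Infant the log2 fold change was 0.41 to 0.88 with 1 library left out, called only without Puber 11 (0.88). It was 0.77 with RLE factors and by DESeq2 and 1.53 without scaling, each called, and -1.22 with all entries. Adult against Puber kept its direction and stayed uncalled under all 24 alternatives (0.22 to 0.83). Adult against Pre-puber was 0.20 to 0.58 with 1 library left out and -1.84 with all entries. Pre-puber against Infant was 0.02 to 0.40 with 1 library left out and -0.034 by upper quartiles. Puber against Pre-puber was -0.43 to 0.06 with 1 library left out (0.062 without Pre-puber 14), 0.01 without scaling and -2.05, called, with all entries. Puber against Infant was -0.18 to 0.19 with 1 library left out, -0.31 by upper quartiles, -0.225 without a filter, -0.13 with every annotated entry, -0.047 with the 2 stages alone and -1.44 with all entries. The cause was not tested.

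A ratio of miR-191a to the 5 summed reference miRNAs was added after seeing the data. It gave log2 differences of -0.66, -0.84 and -1.23 for Pre-puber, Adult and Puber against Infant and -0.18 for Adult against Pre-puber. The sign was opposite to TMM, but 3 of the 5 rose (1 in the last pair), so it shows no fall of miR-191a. No exact two-sided permutation p could pass (adjusted, 0.137 or more), with unadjusted floors of 0.10 (3 against 3 libraries) and 0.057 (4 against 3).

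The share of miR-191a in Sperm over Adult was 30.4, and 26.6 to 36.4 with 1 library left out (36.4 without Sperm 2). It was 31.2 in deposited RPM, 101.5 in TMM-scaled CPM and 12.9 without the 10 most abundant others of either group. As odds, added after seeing the data, it was 54.8. Reference miRNAs called over the stages numbered 5 in place of 3 without scaling, and 3 with each library left out. Sperm-list calls in Sperm against Adult numbered 10 to 12 with 1 library left out, against 11.

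Among annotated miRNAs, counts of calls moved by over 1.5 times in 4 pairs. They were 44 in Pre-puber against Infant (26 with the 2 stages alone, 29 with libraries of 1 title number summed), 2 in Puber against Pre-puber (30 without Pre-puber 14, 7 to 19 with other scalings and tools, 0 with libraries summed, the 2 stages alone or without Pre-puber 3a or 3b, Puber 11 or 19, or Adult 13 or 4, and 1 without Puber 10 or Adult 33) and 0 in Adult against Puber (19 with the 2 stages alone, 10 by DESeq2, 14 without Pre-puber 14, 3 without Pre-puber 3b, 7 without Puber 19 or Adult 20). In Adult against Pre-puber they were 51, 29 with libraries summed, 33 with the 2 stages alone, and 25, 28, 30 and 31 without Pre-puber 3a, Pre-puber 3b, Adult 13 and Adult 4. miR-191a had at least 15581 counts per library.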
